A study of Canis lupus familiaris with 17 samples.

Results

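BACH2 was followed through the blood leukocytes of 17 client-owned dogs as 1 gene (ENSCAFG00000003116) of 20257 counted, chosen because earlier results from these same libraries had pointed to its level in monocytes and lymphocytes of dogs with osteosarcoma (OS). BACH2 is a transcription repressor of the BTB and basic leucine zipper class. It pairs with small MAF proteins and binds MAF recognition elements in DNA, where it competes with activators of the NF-E2 family. In lymphocytes BACH2 is best known for keeping naive and memory cells from turning into effector or antibody-secreting cells, in part by repressing PRDM1, the gene of BLIMP-1. Its relative BACH1 serves more widely as the heme-sensing repressor of genes such as HMOX1.

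Blood had been taken from 7 clinically healthy dogs and from 10 dogs with a primary OS that had received no treatment, all recorded as wild type. Mean age was 7.89 ± 0.652 years (SD, n = 7) in healthy dogs and 8.74 ± 2.19 years (SD, n = 10) in dogs with OS, and breeds were mixed. Leukocytes from the interface of a density gradient, after lysis of red cells, were captured on a Chromium instrument with 3' chemistry, 1 library per dog. The values are counts of unique molecular identifiers (UMIs), each UMI standing for 1 captured transcript.

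The matrices held 93013 barcodes, of which 80407 remained as cells after limits on genes, UMIs and mitochondrial counts and after removal of 3938 likely doublets. Each dog contributed between 1226 and 6632 cells and between 7740230 and 56510134 UMIs, with a median of 3567 to 6649 UMIs per cell. Of 91883 distinct barcodes, 1124 occurred in more than 1 library, and any pair of libraries shared between 0 and 22. BACH2 itself gave between 4933 and 47699 UMIs per dog. Levels below are CPM, the counts per 1000000 UMIs summed over the named population of 1 dog, unless pooling over dogs is stated.

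Populations were gates on UMIs per cell, not clusters. Monocytes had at least 20 UMIs of LYZ and 5 of DLA-DRA with none of CD3E or MS4A1. Lymphocytes had at least 2 UMIs of CD3E or MS4A1 and fewer than 5 of LYZ. The gates took 12748 monocytes (173 to 1953 per dog) and 40800 lymphocytes (734 to 4046 per dog). The monocyte genes read outside the gate all averaged higher in monocytes than in lymphocytes. CSF1R, the receptor for macrophage colony-stimulating factor, averaged 251 CPM in monocytes and 0.808 CPM in lymphocytes. BPI, a bactericidal protein of myeloid cells, averaged 977 and 3.36 CPM.

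BACH2 was a lymphocyte gene, higher in lymphocytes than in monocytes in 17 of 17 dogs. The B cells defined by MS4A1 held 2146 ± 870 CPM (SD, n = 15 dogs with at least 25 such cells). CD4 T cells with at least 3 UMIs of LEF1 and CCR7 together, genes of naive and central memory T cells, held 836 ± 355 CPM (SD, n = 17). CD8 T cells with LEF1 and without the effector chemokine CCL5 held 641 ± 246 CPM (SD, n = 12). At the middle of the order stood CD4 T cells without LEF1 and CCR7, at 138 ± 89.1 CPM (SD, n = 17), and CD8 T cells with at least 5 UMIs of CCL5 and no LEF1, at 111 ± 83.5 CPM (SD, n = 9). Monocytes held 28.3 ± 15.4 CPM and neutrophils 17.2 ± 11.4 CPM (SD, n = 17 each).

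Across the 9 populations that enough dogs provided, neighbours in this order overlapped in their ranges over dogs without exception. Within single dogs, B cells lay above LEF1/CCR7-high CD4 T cells in 15 of 15, and CCL5-zero CD8 T cells above LEF1/CCR7-zero CD4 T cells in 12 of 12. LEF1/CCR7-zero CD4 T cells and CCL5-high CD8 T cells could not be ordered, with the first higher in 5 of 9 dogs. Monocytes lay above neutrophils in 12 of 17 dogs. Neutrophils and plasma cells, in which JCHAIN and MZB1 are high, could not be ordered, with neutrophils higher in 4 of 6 dogs, and plasma cells lower by mean log2 level but higher by mean CPM (20.2 ± 32.5, SD). The 3 healthy dogs with enough of them had 6.30, 6.53 and 85.9 CPM and the 3 dogs with OS 1.03, 6.11 and 15.6 CPM, from no more than 55 BACH2 UMIs per dog. Cells of eosinophil or basophil type ranged from 0 to 761 CPM over 10 dogs and could not be placed.

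**Figure D1:**
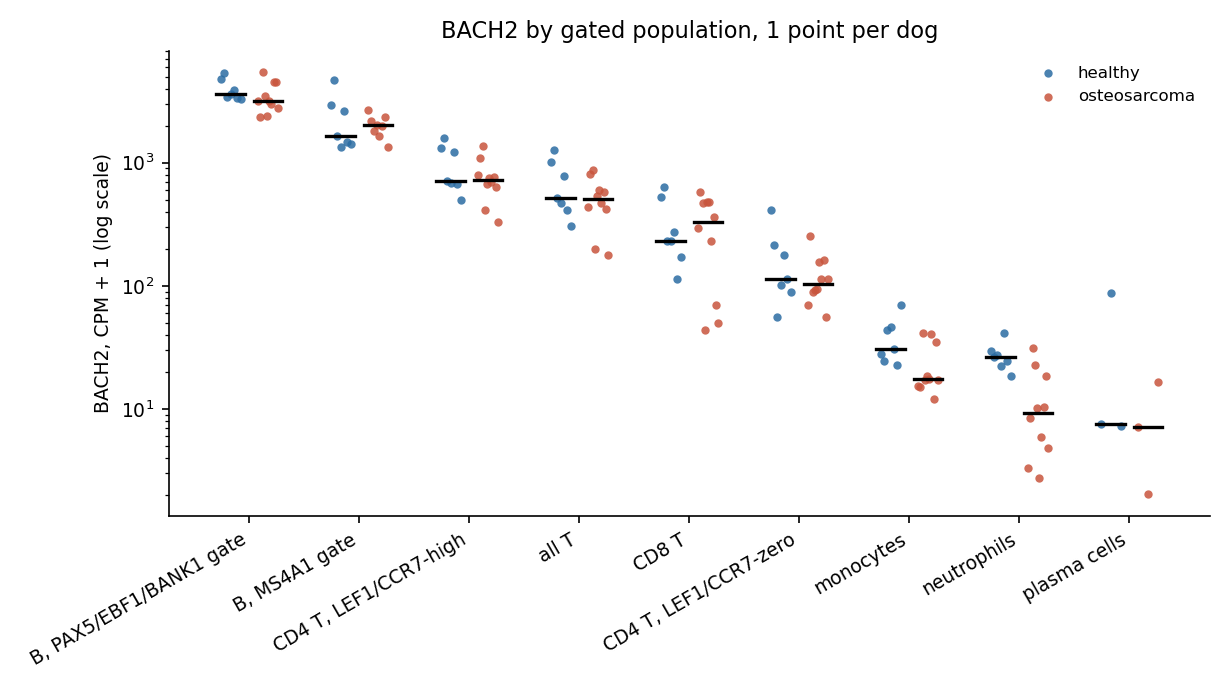
BACH2 per dog in 9 gated populations (CPM + 1, log scale), 1 point per dog with at least 25 cells of that population, healthy and OS dogs side by side, bars at the median of the group. B cells sit highest, T cells split by their naive and effector genes, and monocytes, neutrophils and plasma cells lie lowest.

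The gate on MS4A1 is narrow, because few UMIs of that gene are captured per cell. B cells defined by at least 3 UMIs of PAX5, EBF1 and BANK1 together, with no CD3E and fewer than 5 UMIs of LYZ, held 3954 ± 811 CPM of BACH2 in healthy dogs (SD, n = 7) and 3491 ± 1019 CPM in dogs with OS (SD, n = 10). BANK1 also averaged 519 CPM in monocytes, which the LYZ limit keeps out of this gate. The wider gate, chosen after values had been seen, took a median of 8.87% of all cells in healthy dogs (4.11 to 16.2%) and 5.26% in dogs with OS (2.25 to 8.34%). Those cells carried a median of 34.9% and 28.7% of all BACH2 UMIs of a dog. Monocytes carried 0.251 to 5.36%.

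The genes whose level followed BACH2 most closely over the 9 populations were AFF3 (r = 0.96), PCMTD1 (r = 0.95) and SP140 (r = 0.94), out of 5440 genes with enough counts. The correlation used the mean over dogs of log2(CPM + 1), so its 9 points share the same libraries and it describes likeness only.

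In monocytes, BACH2 of the 7 healthy dogs measured 27.0, 23.7, 42.9, 45.2, 29.7, 21.6 and 69.3 CPM for replicates 1 to 7. The 10 dogs with OS measured 14.5, 14.1, 40.7, 16.2, 17.7, 16.4, 39.7, 11.1, 34.0 and 16.3 CPM for replicates 1 to 10. The groups overlapped: 7 of 10 dogs with OS lay below the lowest healthy dog, while OS 3, OS 7 and OS 9 lay inside the healthy range and healthy 7 stood above all dogs. The healthy mean was 37.1 ± 16.9 CPM (SD, n = 7) and the OS mean 22.1 ± 11.3 CPM (SD, n = 10). The fitted log2 fold change of OS over healthy was −0.74 ± 0.28 (SE), or 1.67-fold lower in OS. This contrast chose the gene, so it is given as a description and carries no test. Without healthy 7 the log2 fold change was −0.51, the smallest of all 17 omissions. Across all genes of the monocytes, edgeR's quasi-likelihood test called 0 of 14059 between OS and healthy dogs (0%), 876 of them had an unadjusted p below 0.05 (6.23%), and DESeq2 also called 0. For 1 gene of the 14059 (0.00711%), PIK3R6 and not BACH2, every dog with OS lay below every healthy dog.

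The depth behind these levels is modest, with 55 to 533 BACH2 UMIs in the monocytes of a dog. A BACH2 UMI was found in 11.0 to 18.5% of a healthy dog's monocytes (median 13.8%) and in 4.22 to 14.9% of those of a dog with OS (median 7.61%). The median monocyte held 12238 UMIs in healthy dogs and 12093 in dogs with OS. When every cell was thinned to 1500 UMIs, which left out 7 monocytes of each group, the shares were 2.43 to 5.30% (median 3.31%) and 1.08 to 3.47% (median 1.32%).

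Neutrophils served as a population that should hold little BACH2, at median depths of 1763 UMIs per cell in healthy dogs and 2148 in dogs with OS. Their unthinned shares were 1.48 to 6.70% (median 5.06%) and 0.637 to 5.66% (median 2.27%). Thinned, the shares were 0.556 to 4.51% (median 3.64%) and 0 to 5.79% (median 0.954%), with 623 and 615 shallower neutrophils left out. At equal depth the ranges of monocytes and neutrophils overlapped in both groups of dogs, with the monocyte median below that of neutrophils in healthy dogs and above it in dogs with OS, so no order is read from these shares. In neutrophils the level itself was 26.2 ± 7.21 CPM in healthy dogs (SD, n = 7) and 10.8 ± 9.41 CPM in dogs with OS (SD, n = 10). The log2 fold change was −1.41 ± 0.41 (SE), on 1 to 56 BACH2 UMIs per dog. Here 8 of 10 dogs with OS lay below the lowest healthy dog, and 0.00928% of 10779 genes had no overlap in that direction. The lower mean in OS was thus also read in the neutrophil gate, where the lymphocyte genes described below were lower in OS too. Over the 17 T cell genes neutrophils averaged 66.1 CPM in healthy dogs and 41.0 CPM in dogs with OS. Over the 6 B cell genes they averaged 15.5 and 10.1 CPM. The part of lymphocyte RNA in the lower BACH2 of neutrophils was not tested.

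Cells with much BACH2 were few. Of the 12748 monocytes, 218 had at least 5 BACH2 UMIs, 113 of 4423 in healthy dogs and 105 of 8325 in dogs with OS. These cells supplied a median of 57.2% of the monocyte BACH2 UMIs of a healthy dog (40 to 82.7%) and 59.2% of those of a dog with OS (20 to 77.6%), and the highest single cells held 59 and 90. The level in monocytes was in large part the level of this small set. Of the 218 cells, 168 carried a UMI of FLT3, the receptor for FLT3 ligand on dendritic cells and early progenitors, and 103 carried a UMI of the lymphocyte genes described below. Among all monocytes of a dog those shares were 10.8 to 32.4% (median 19.9%) and 14.3 to 41.3% (median 20.8%). The FLT3 share had a median of 21.0% in healthy dogs (16.9 to 27.3%) and 18.1% in dogs with OS (10.8 to 32.4%). For the lymphocyte genes the medians were 22.8% (20.2 to 35.8%) and 19.7% (14.3 to 41.3%). The part of these shares in the lower BACH2 level of OS was not tested.

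The 218 cells were compared with the monocytes that had no BACH2 UMI, as a description without a test, since BACH2 itself chose them. Unlike the levels per dog above, both sides are CPM of UMIs pooled over the cells of all dogs, healthy and with OS. A dog supplied between 2 and 26 of the 218 cells. A few dogs or cells can therefore carry a ratio, and no spread between dogs is given. The genes named here were picked after their values were seen. The highest ratio was that of CAMP, an antimicrobial peptide of neutrophil granules, at 314 against 2.31 CPM, and MRC1, the mannose receptor, was at 318 against 8.26 CPM. The cells held more of several genes known from dendritic cells, with PKIB at 1117 against 42.0 CPM, FLT3 at 346 against 28.0 CPM, ZNF366 at 151 against 4.43 CPM and CD1C, a lipid-presenting molecule, at 107 against 20.4 CPM. AFF3, a lymphoid nuclear protein, was at 1115 against 56.2 CPM. They held less of LYZ, at 8434 against 22187 CPM, of CSF1R, at 132 against 267 CPM, and of F13A1, a transglutaminase of classical monocytes, at 145 against 462 CPM. DLA-DRA, a class II antigen-presenting chain, was at 9390 against 3852 CPM. The B cell factor PAX5 was at 19.5 against 0.408 CPM and the T cell factor LEF1 at 19.5 against 1.87 CPM. The ratio was ranked over all genes, and values were kept only for the highest and for a few chosen genes. CAMP was the only named gene of neutrophil granules among the highest, and the levels of other granulocyte genes were not kept.

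The gates with and without FLT3, chosen after values had been seen, separated the level within dogs. Monocytes with FLT3 held 50.6 to 114 CPM of BACH2 in healthy dogs (median 87.4) and 37.4 to 154 CPM in dogs with OS (median 48.8). Monocytes without FLT3 held 9.49 to 62.2 CPM (median 19.2) and 5.22 to 30.4 CPM (median 8.09). The FLT3 side was higher in 17 of 17 dogs. FLT3 had stood out in the 218 cells that BACH2 itself chose, so this count is a description and adds no separate support. Cells with FLT3 were also deeper, at a median of 14567 UMIs per cell against 11624.

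Carry-over from lymphocytes was measured with 23 genes that were high in T or B cells and low in monocytes, 17 for T cells and 6 for B cells. From a longer list, 4 genes judged high in monocytes or T cells were set aside after values had been seen. In monocytes CD2 stood at 8.74%, TNFRSF13C at 2.10%, CD79A at 54.2% and BANK1 at 59.5% of their level in T or B cells. BACH2 stood at 4.34% of its level in lymphocytes. The cut was made by hand, and CD5 was kept at 1.87%. CD79A was at 8395 CPM in T cells and 6241 CPM in B cells. The 23 genes therefore have low ratios by choice, and the amounts computed from them would be higher with those 4 included. CD3E and MS4A1 stood at 0 in every monocyte because the gate demanded it, and they inform about nothing beyond the gate. Over the 17 T cell genes the summed level in monocytes was 19.998 to 34.4 CPM in healthy dogs (median 20.99) and 11.51 to 43.6 CPM in dogs with OS (median 17.7). Over the 6 B cell genes it was 2.08 to 11.0 CPM (median 4.63) and 0.760 to 11.2 CPM (median 4.24). The medians of 5 of the 17 T cell genes (CD5, CD7, LCK, IL7R and CD8A) and of 1 of the 6 B cell genes (EBF1) were higher in OS, so most of these genes had a lower median there, as BACH2 had. Their part in the lower BACH2 level was not tested, and the amounts involved follow.

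The summed T cell genes in monocytes amounted to a median of 0.349% of their level in T cells of the same dog in healthy dogs and 0.269% in dogs with OS. The B cell genes amounted to 0.422% and 0.393% of their level in B cells of the wide gate, which itself selects on PAX5 and EBF1. BACH2 in monocytes amounted to a median of 4.79% of its level in lymphocytes in healthy dogs (1.57 to 19.6%) and 3.64% in dogs with OS (1.71 to 7.98%). BACH2 of T cells and of B cells from the wide gate, multiplied by these ratios, gave the BACH2 that would accompany the carried-over genes if all came over alike. It came to 10.1 to 37.0 CPM in healthy dogs (median 17.9) and 4.11 to 31.8 CPM in dogs with OS (median 16.8). As a share of the measured BACH2 it was 34.1 to 76.5% (median 53.5%) and 23.2 to 196% (median 72.2%). The measured level lay above it in 7 of 7 healthy dogs and in 6 of 10 dogs with OS, the exceptions being OS 1, OS 2, OS 4 and OS 10, a count that depends on which genes were kept.

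The excess of measured BACH2 over that amount was 5.83 to 32.2 CPM in healthy dogs (median 12.9) and −15.6 to 22.99 CPM in dogs with OS (median 3.73). EBF1, 1 of the 6 B cell genes, was called higher in CD4-positive than in CD4-negative monocytes (log2 fold change 1.31). Of the 6 it had the highest ratio to MS4A1 B cells (0.821%). Leaving it out, a choice made after values had been seen, lowers the amount where it is high. Without it the amount was 7.47 to 36.1 CPM in healthy dogs (median 15.2) and 5.31 to 17.3 CPM in dogs with OS (median 8.26). The measured level then lay above it in every dog, 7 of 7 healthy and 10 of 10 with OS. The B cell ratio rested on 13 to 90 UMIs per healthy dog and 6 to 66 per dog with OS, and the amount moves with it. For monocytes without FLT3 the measured level exceeded the amount in 6 of 7 healthy and 3 of 10 OS dogs with EBF1 counted, and in 7 of 7 and 6 of 10 without it. For neutrophils it did so in 2 of 7 and 1 of 10 with EBF1, and in 3 of 7 and 4 of 10 without it.

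**Figure D2:**
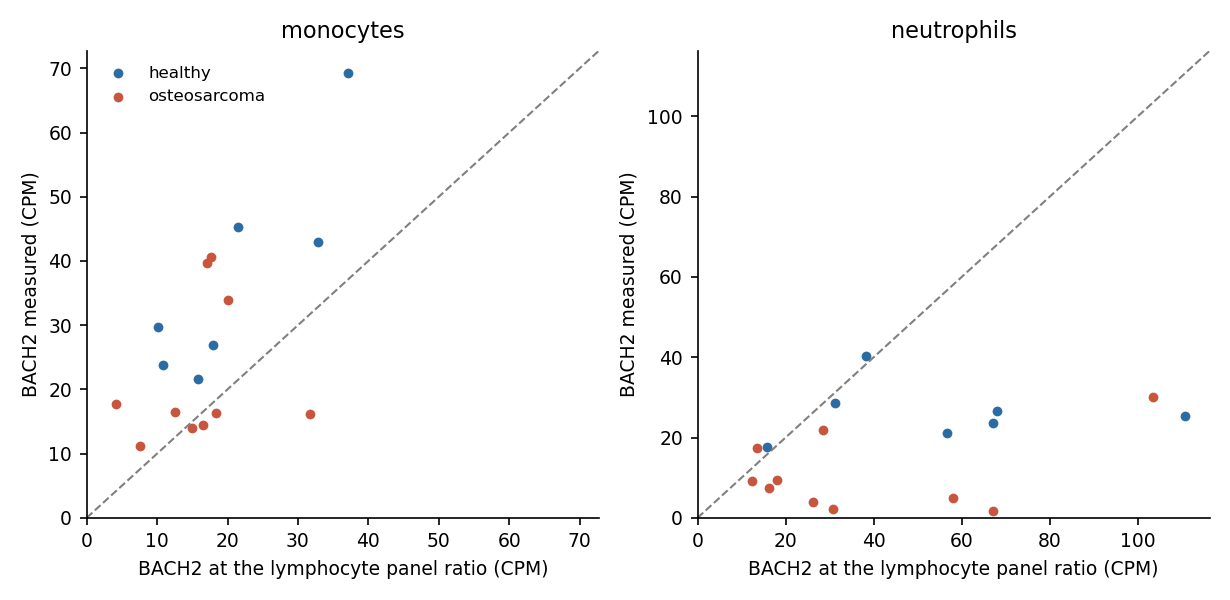
BACH2 measured in monocytes and in neutrophils (CPM, vertical) against the BACH2 that lymphocyte genes carried over at the same ratio would bring (CPM, horizontal), 1 point per dog and a dashed line of equality. All 7 healthy and 6 of 10 OS dogs lie above the line, and most neutrophil points lie below it.

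BACH2 was also read in monocytes from which every cell with a UMI of the 23 genes had been removed, a choice made after values had been seen. The level was then 19.93 to 41.7 CPM in healthy dogs (median 24.8) and 7.89 to 19.88 CPM in dogs with OS (median 14.2). The groups nearly touched, and every dog with OS lay below every healthy dog by that narrow margin, which among 13646 genes held for BACH2 alone, 1 gene (0.00733%). Healthy dogs averaged 27.5 ± 8.05 CPM (SD, n = 7), dogs with OS 13.6 ± 3.76 CPM (SD, n = 10), and the log2 fold change was −1.01 ± 0.18 (SE). The part of lymphocyte RNA in the difference over all monocytes was not tested.

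With cells carrying FLT3 removed as well, BACH2 measured 10.9 to 19.3 CPM in healthy dogs (median 12.11) and 3.27 to 8.84 CPM in dogs with OS (median 5.46). Again every dog with OS lay below every healthy dog, and BACH2 was the 1 of 13227 genes (0.00756%) for which this held. The log2 fold change was −1.26 ± 0.19 (SE), or 2.39-fold lower in OS. With cells carrying FLT3 removed alone it was −0.91 ± 0.40 (SE), and 7 of 10 dogs with OS lay below the lowest healthy dog, where 1 of 13664 genes (0.00732%), again PIK3R6, had no overlap. The rule used this contrast and these gates were shaped on it, so the separation is a description of these 17 dogs and supports nothing further. Median depth of the cells that remained without the 23 genes and FLT3 was 11537 UMIs in healthy dogs and 11470 in dogs with OS.

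The LYZ limit moved the level but not the order of the groups. At no fewer than 10 UMIs of LYZ, healthy dogs held 41.0 to 122 CPM (median 73.0) and dogs with OS 23.1 to 92.8 CPM (median 39.2). At no fewer than 50 UMIs, they held 17.1 to 39.0 CPM (median 26.2) and 7.55 to 31.8 CPM (median 12.13). BACH2 thus became lower as the gate became stricter for LYZ, in both groups, and the log2 fold changes were −0.77 ± 0.27 and −0.98 ± 0.23 (SE).

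**Figure D3:**
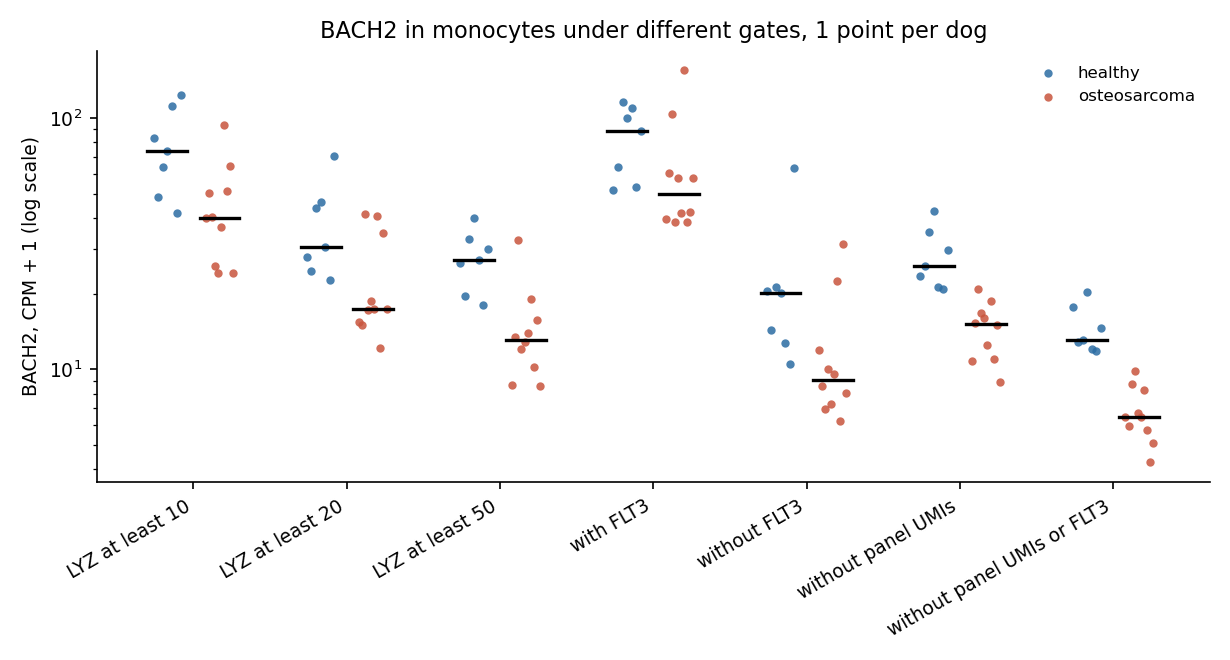
BACH2 per dog (CPM + 1, log scale) under 7 monocyte gates, 1 point per dog and bars at the median of each group. Where cells with UMIs of the 23 lymphocyte genes are removed the groups nearly touch without overlapping (19.88 and 19.93 CPM), and the level drops from the lenient to the strict LYZ limit.

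In lymphocytes as a whole, BACH2 measured 354 to 1512 CPM in healthy dogs (median 598) and 205 to 999 CPM in dogs with OS (median 531). The ranges overlapped widely, with 2 of 10 dogs with OS below the lowest healthy dog. Healthy dogs averaged 770 ± 420 CPM (SD, n = 7), dogs with OS 567 ± 235 CPM (SD, n = 10), and the log2 fold change was −0.36 ± 0.27 (SE), given as a description because this contrast, too, chose the gene. Without healthy 1 it was −0.21, without healthy 2 also −0.21, and with the replicate number as a block −0.22. The edgeR test called 0 of 15302 genes between the groups in lymphocytes (0%), while 536 had an unadjusted p below 0.05 (3.5%). DESeq2 called 0 as well.

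A BACH2 UMI was found in 46.0 to 82.2% of a healthy dog's lymphocytes (median 61.6%) and 31.2 to 78.1% of those of a dog with OS (median 62.5%), at median depths of 5384 and 5310 UMIs per cell. Thinned to 1500 UMIs, with 35 and 47 shallower cells left out, the shares were 27.0 to 62.0% (median 42.4%) and 17.3 to 54.3% (median 41.5%). These shares stood far above those of neutrophils.

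Separate types of lymphocyte gave smaller or similar differences. T cells held 303 to 1269 CPM in healthy dogs (median 516) and 176 to 870 CPM in dogs with OS (median 503), a log2 fold change of −0.37 ± 0.29 (SE). In LEF1/CCR7-high CD4 T cells the levels were 497 to 1600 CPM (median 708) and 328 to 1376 CPM (median 726), with −0.32 ± 0.23 (SE). CD8 T cells held 113 to 633 CPM (median 232) and 42.7 to 574 CPM (median 328), with −0.01 ± 0.44 (SE). B cells by MS4A1 held 1343 to 4685 CPM in the 7 healthy dogs (median 1661) and 1352 to 2697 CPM in 8 dogs with OS (median 2004), with −0.10 ± 0.22 (SE), while OS 3 and OS 5 had only 18 and 16 such cells. None of these 8 lay below the lowest healthy dog. By the wide B cell gate the levels were 3288 to 5383 CPM (median 3641) and 2371 to 5461 CPM (median 3177), with 6 of 10 dogs with OS below the lowest healthy dog and −0.16 ± 0.17 (SE).

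MS4A1 B cells made up a median of 3.93% of lymphocytes in healthy dogs (3.28 to 7.61%) and 2.65% in dogs with OS (0.885 to 5.14%), and they carried a median of 14.73% and 15.02% of the lymphocyte BACH2 UMIs. Over all cells together BACH2 was at 837 ± 356 CPM in healthy dogs (SD, n = 7) and 499 ± 197 CPM in dogs with OS (SD, n = 10), with a log2 fold change of −0.68 ± 0.25 (SE). In such sums over mixed cells, fewer cells of a type and less BACH2 per cell cannot be told apart.

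Within dogs, BACH2 was tested between 5 pairs of lymphocyte populations and 1 pair inside the monocyte gate, contrasts between populations of the same dog that had no part in choosing the gene. Each fit ran over all genes with the dog as a block, and a gene was called at an edgeR adjusted p below 0.01 and a log2 fold change beyond 0.58 in size. Dogs are separate animals, but edgeR shares information on spread across genes. These p-values therefore do not rest on the spread of BACH2 between dogs alone. With limma-voom BACH2 stayed called in all 6 contrasts, at larger adjusted p-values. BACH2 was called in all 6 contrasts that could be fitted, and the size of each is set out by population.

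B cells held more BACH2 than T cells. The B side ranged from 1343 to 4685 CPM (median 1983) and the T side from 176 to 1269 CPM (median 472), with B cells higher in 15 of 15 dogs. The log2 fold change was 1.95 ± 0.12 (SE), or 3.88-fold, with an edgeR adjusted p of 1.1e-13. In this contrast 24.9% of 15213 genes were called and 11.2% were higher in B cells, so a call here is common. With the wide B cell gate the log2 fold change was 2.60.

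CD4 T cells held more than CD8 T cells, at 201 to 1423 CPM (median 584) against 42.7 to 633 CPM (median 270). The CD4 side was higher in 17 of 17 dogs, with a log2 fold change of 1.41 ± 0.15 (SE), or 2.67-fold, and an edgeR adjusted p of 1.0e-08. Of 14050 genes, 13.7% were called and 7.02% were higher in CD4 T cells.

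Among CD4 T cells, those with LEF1 and CCR7 held 328 to 1600 CPM (median 708) and those without held 55.0 to 411 CPM (median 112). The LEF1/CCR7-high side was higher in 17 of 17 dogs, with a log2 fold change of 2.62 ± 0.10 (SE), or 6.14-fold, and an edgeR adjusted p of 2.1e-23. Of 13516 genes, 12.8% were called and 6.41% were higher on that side. Median depth was 6046 UMIs per cell on that side and 5350 on the other, and levels were scaled to the UMIs of each sum.

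Among CD8 T cells, those with LEF1 and no CCL5 held 204 to 1021 CPM (median 646) and those with CCL5 and no LEF1 held 0 to 371 CPM (median 121). The CCL5-zero side was higher in all 13 dogs that had 10 or more cells of both kinds, a lower limit set after values had been seen, since 25 cells left few dogs. The log2 fold change was 2.47 ± 0.17 (SE), or 5.53-fold, with an edgeR adjusted p of 7.5e-17, where 7.55% of 10921 genes were called and 4.3% were higher on that side. The dog at 0 was OS 6, whose CCL5-high cells numbered 15.

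CD4 T cells with CTLA4 and IL2RA, the regulatory type, held 92.7 to 792 CPM (median 265), and LEF1/CCR7-high CD4 T cells of the same dogs held 328 to 1600 CPM (median 708). The regulatory type was lower in all 15 dogs that had 10 or more cells of both kinds. Its median stood above the median of 112 CPM of LEF1/CCR7-zero CD4 T cells over 17 dogs. The regulatory gate set no limit on LEF1 or CCR7, so a cell could count on both sides of this contrast. The log2 fold change was −1.51 ± 0.08 (SE), or 2.85-fold lower, with an edgeR adjusted p of 7.6e-30, where 5.92% of 13224 genes were called and 2.96% were lower in the regulatory type. With limma-voom the adjusted p was 5.7e-12. B cells and plasma cells could not be compared within dogs, because too few dogs had enough of both.

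**Figure D4:**
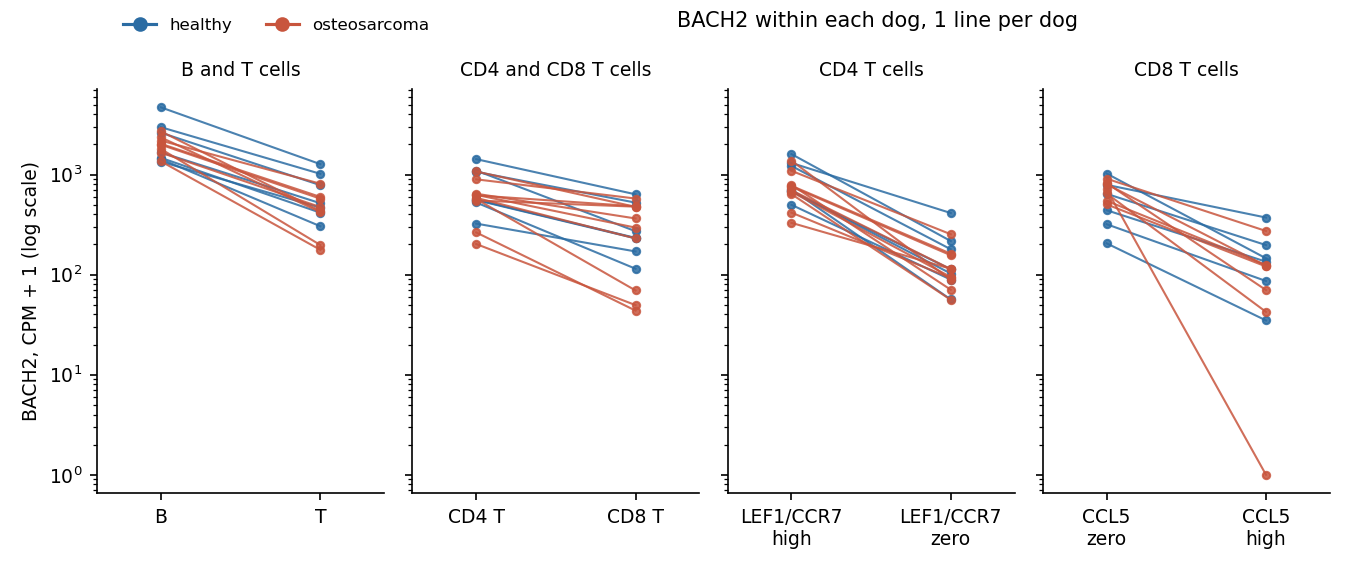
BACH2 (CPM + 1, log scale) on both sides of 4 within-dog contrasts, 1 line per dog coloured by group. The line falls from B to T cells in 15 of 15 dogs, from CD4 to CD8 T cells and from LEF1/CCR7-high to LEF1/CCR7-zero CD4 T cells in 17 of 17, and from CCL5-zero to CCL5-high CD8 T cells in 13 of 13.

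Monocytes were divided by CD4, which canine monocytes and neutrophils can express. CD4-positive monocytes held 2.19 to 71.8 CPM of BACH2 (median 10.7) and CD4-negative monocytes 11.51 to 68.7 CPM (median 28.2). The positive side was higher in 3 of 16 dogs, with a log2 fold change of −0.90 ± 0.14 (SE), or 1.86-fold lower, and an edgeR adjusted p of 1.5e-06. Of 14036 genes 13.9% were called, 9.9% lower in CD4-positive monocytes. With likely doublets kept the log2 fold change was −0.33 and the call was lost at an adjusted p of 0.10. Median depth was 8533 UMIs per cell on the positive side and 12772 on the negative side.

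The 6 contrasts were compared between dogs with OS and healthy dogs by an exact two-sided permutation test on the per-dog log2 differences. None passed after adjustment over the 6 tests. The CD8 split by CCL5 differed by 1.70 (exact p = 0.071, adjusted p = 0.25), with OS 6 at 0 on 1 side, so that its value rests on the pseudocount. Without OS 6, left out after values had been seen, the difference was 0.73 (exact p = 0.13, adjusted p = 0.40). B against T cells differed by 0.48 (exact p = 0.084, adjusted p = 0.25). The CD4 split by LEF1 and CCR7 differed by −0.01 (exact p = 0.98, adjusted p = 0.98).

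Lists of genes were read in the same fits, starting with the CD4 split by LEF1 and CCR7. They hold relatives and known targets of BACH2, and also heme genes and regulators of naive or effector state. Regulation of these genes by BACH2 was not tested. The CD4 and CD8 splits chose cells by genes of naive or effector state. Effector and quiescence genes in them therefore describe those gates and give no separate support on BACH2. Of 12 genes that BACH2 is known to repress or that drive effector programmes, 11 were called lower on the LEF1/CCR7-high side and 0 higher, with a median log2 fold change of −1.64 against 0.09 over all genes, of which 6.34% were called lower. PRDM1 was at 35.2 against 124 CPM, a log2 fold change of −1.69 ± 0.09 (SE, edgeR adjusted p = 5e-19). MAF, a factor of helper T cells that make IL-4 and IL-10, was at 123 against 381 CPM (−1.51). GATA3, the type 2 helper factor, was at 90.3 against 163 CPM (−0.72), and IL12RB2, a chain of the IL-12 receptor, at 33.3 against 101 CPM (−1.59).

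Of the regulators of quiescence and naive state, 11 of 12 were tested in that split and 4 were called higher on the LEF1/CCR7-high side, LEF1 of the gate included, beside 6.41% of all genes, with a median of 0.45. SATB1, a chromatin organizer of naive T cells, was at 978 against 279 CPM (1.89). The others, TCF7 (1.47) and FOXP1 (1.23), are named after their values were seen, while ETS1 (−0.08) and IKZF1 (0.06) were not called. Of the 9 NF-E2 relatives and small MAF partners, 0 were called by edgeR, beside 12.8% of all genes. Their log2 fold changes ranged from −1.20 to 1.52, with a median of −0.19. BACH1 was at 44.4 against 50.1 CPM (−0.10, not called). Of the heme and oxidative response genes 10 of 11 were tested and 0 were called by edgeR. They ranged from −1.05 to 0.69, with a median of 0.10.

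The CD8 split showed 7 of 12 effector genes called lower on the CCL5-zero side, 0 called higher and a median of −1.31 against 0.07 over all genes, of which 3.24% were called lower. GZMB, the cytotoxic protease, was at 258 against 1678 CPM (−2.70), IL12RB2 at 360 against 870 CPM (−1.39) and the killer cell receptor KLRG1 at 23.4 against 84.9 CPM (−1.84). GATA3 was at 61.5 against 58.4 CPM (0.00, not called). PRDM1, named after its value was seen, differed by −1.54. Of 10 quiescence genes tested, 5 were called higher (TCF7, BCL11B, FOXP1, SATB1 and LEF1 of the gate), beside 4.3% of all genes, with SATB1 at 975 against 671 CPM (0.68) and a median of 0.61. Of 6 NF-E2 relatives tested, 1 was called, beside 3.24% of all genes called lower, and it was BACH1 at 51.1 against 89.7 CPM (−0.69). The heme and oxidative list had 1 of 9 called higher (4.3% of all genes), which was SLC7A11, the cystine transporter (2.03, named after its value was seen).

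In the regulatory type against LEF1/CCR7-high CD4 T cells, 5 of 12 effector genes were called higher and 0 lower, with a median of 1.03 against −0.16 over all genes, of which 2.96% were called higher. MAF was at 324 against 121 CPM (1.29), GATA3 at 216 against 90.8 CPM (1.10) and PRDM1 at 108 against 33.4 CPM (1.56). AHR (1.16) and IRF4 (1.29) completed the 5, and IL12RB2 was at 52.0 against 35.7 CPM (0.35, not called). Of 11 quiescence genes 4 were called lower, beside 2.96% of all genes, with a median of −0.49. SATB1 was at 422 against 973 CPM (−1.38), and the others were TCF7 (−1.86), FOXP1 (−0.80) and LEF1, part of the gate on 1 side. The NF-E2 list and the heme list had 0 called by edgeR, beside 5.92% of all genes. Their log2 fold changes ranged from −1.23 to 1.70 and from −0.30 to 0.56.

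These lists did not always oppose BACH2. In B against T cells, where BACH2 was higher, 3 of 12 effector genes were called higher and 8 lower, beside 11.2% and 13.8% of all genes. The higher genes were IRF4 (4.02), XBP1 (1.16), both of plasma cell differentiation, and PRDM1, at 99.7 against 49.1 CPM (0.91 ± 0.21 SE, edgeR adjusted p = 0.00064). NFE2L2, the activator of the oxidative response, was at 31.3 against 10.42 CPM (1.49), and the ferritin light chain FTL at 949 against 591 CPM (0.61). HMOX1 (3.20) was the other heme gene called higher, and NFE2L1 (−0.68) was called lower. Of 11 quiescence genes tested in B against T cells, 2 were called higher, the B cell factors PAX5 and EBF1, and 5 lower (ETS1, TCF7, BCL11B, SATB1 and LEF1), with a median of −0.49 against −0.13 over all genes. In CD4 against CD8 T cells, 4 of 11 were called higher (TCF7, BCL11B, FOXP1 and LEF1) and 1 lower (BCL6), with a median of 0.38 against 0.06. In that contrast 4 effector genes were called higher and 6 lower, beside 7.02% and 6.66% of all genes, with GZMB at 11.46 against 1051 CPM (−6.73), MAF at 175 against 44.9 CPM (2.01) and PRDM1 not called (0.02). NFE2L3 was called higher (0.77) and NFE2L2 lower (−0.64) in CD4 T cells. Of the heme list GCLC was called higher (0.69) and HMOX1 lower (−1.62).

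In CD4-positive against CD4-negative monocytes, 2 of 9 effector genes tested were called lower and 0 higher, beside 9.9% and 4% of all genes. IRF4, a factor of plasma cells and of some dendritic cells, was at 29.4 against 74.9 CPM (−1.47) and MAF differed by −0.91, while AHR, the aryl hydrocarbon receptor, was at 527 against 512 CPM (−0.08) and PRDM1 at 48.1 against 33.1 CPM (0.48), neither called. SLC7A11 was called higher, at 204 against 80.6 CPM (1.17), and 2 of the 10 heme and oxidative genes, HMOX1 (−0.62) and ME1 (−0.87), were called lower. NFE2 (0.48), NFE2L2 (0.22), BACH1 (0.28) and MAFF (0.36) were below the fold limit, and 1 of the 9 on that list, NFE2L3 (0.63), was called higher. Of 11 quiescence genes 1 was called higher, EBF1 (1.31), and 0 lower, beside 4% and 9.9% of all genes. They ranged from −0.49 to 1.31, with a median of 0.17. The median over all genes was −0.10.

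Between OS and healthy dogs, edgeR and DESeq2 called no member of these lists in monocytes or lymphocytes, where no gene of any kind was called. The monocyte medians were 0.16 for the 9 NF-E2 relatives, 0.04 for 10 heme and oxidative genes, 0.00 for 9 effector genes and −0.17 for 11 quiescence genes, beside −0.00 over all genes. At an unadjusted p below 0.05 there were 1, 0, 1 and 0 members, NFE2 and MAF, beside 6.23% of all genes. NFE2, the hematopoietic member of its family, was at 106 ± 45.5 CPM in OS and 66.0 ± 22.6 CPM in healthy dogs (SD, n = 10 and 7), a log2 fold change of 0.71 ± 0.28 (SE, edgeR adjusted p = 0.72). NFE2L2 was at 250 against 275 CPM (−0.10), BACH1 at 210 against 202 CPM (0.10) and MAFF at 142 against 98.1 CPM (0.57).

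No listed gene passed the test in monocytes, which does not show that their levels were alike. HMOX1, heme oxygenase, was at 157 ± 28.6 CPM in OS and 142 ± 25.7 CPM in healthy dogs (SD, n = 10 and 7), with 0.18 ± 0.13 (SE). FTH1 was at 7660 against 6378 CPM (0.30), FTL at 2769 against 2848 CPM (−0.02) and TXNRD1, thioredoxin reductase, at 141 against 143 CPM (0.02). PRDM1 was at 42.1 ± 53.9 against 26.7 ± 41.9 CPM (0.66 ± 0.83 SE), a wide spread between dogs. AHR (−0.02), IRF4 (−0.18), IKZF1 (0.06) and FOXP1 (−0.13) were not called either.

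In lymphocytes the medians were 0.10, 0.16, −0.03 and −0.08 for the same 4 lists, beside 0.01 over all genes. An unadjusted p below 0.05 was found for 0, 1, 1 and 3 members, beside 3.5% of all genes. These were NQO1, IFNG, EBF1, PAX5 and BCL6, none of them called, with the B cell factors EBF1 at −0.90 and PAX5 at −0.78. Whether the smaller share of MS4A1 B cells in OS given above had a part in this was not tested. BACH1 was at 51.1 against 52.4 CPM in OS and healthy dogs (0.03), GZMB at 333 against 228 CPM (0.56 ± 0.44 SE) and LEF1 at 938 against 1050 CPM (−0.08 ± 0.23 SE). In B cells by MS4A1, PRDM1 was at 110 ± 84.3 against 87.6 ± 40.2 CPM (0.46 ± 0.42 SE) and PAX5 at 359 against 419 CPM (−0.13). None was called, and edgeR called 0 of 10758 genes there (0%), with 549 at an unadjusted p below 0.05 (5.1%).

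BACH2 of T cells and of B cells moved together across healthy dogs, in values that share a library and its depth. Over 15 dogs Pearson's r between their log2 levels was 0.73 and Spearman's rho 0.68 (permutation p = 0.0017, adjusted p = 0.013 over 15 relations), and without the 2 dogs farthest from the median r was 0.55. In the 7 healthy dogs r was 0.95 (rho 0.89, exact permutation p = 0.0012, adjusted p = 0.013, and 0.85 without 2 dogs), and in the 8 dogs with OS it was 0.58 (adjusted p = 0.34, and −0.21 without 2 dogs). The relation within dogs with OS thus rests on 2 of them. Monocyte BACH2 was not related to T cell BACH2 at this number of dogs, with r = 0.05 over 17 (adjusted p = 0.86), −0.66 in healthy dogs and 0.19 in dogs with OS.

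Depth moved with the T cell level. Over 17 dogs, the median UMIs per T cell and T cell BACH2 had r = 0.64 (rho 0.57, permutation p = 0.0054, adjusted p = 0.027, and 0.50 without 2 dogs). Within groups r was 0.86 in healthy dogs (adjusted p = 0.084) and 0.44 in dogs with OS (adjusted p = 0.38, and −0.22 without 2 dogs). For monocytes r between depth and BACH2 was −0.16 (adjusted p = 0.69). Whether depth had a part in the levels of T cells was not tested.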

How the data were processed

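The deposited values were UMI counts per gene and barcode, 1 matrix per dog, which the authors made with Cell Ranger 7.0.0 on CanFam3.1 with and without introns. Which of the 2 was deposited is not given in the sources used here, and intron counting would change the level of a gene. No column of another series was present (0). Barcodes were kept as cells between 200 and 4500 genes, between 500 and 20000 UMIs and under 10% of mitochondrial UMIs. The top Scrublet scores in each dog were removed as doublets, 0.8% per 1000 barcodes.

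Groups and replicates came from the labels. BACH2, the gates, the gene lists and the rule for names (up to 4 members of each list, those highest in CPM, and the 5 genes most like BACH2) were chosen with earlier results of these data known. Of the latter 5, the lowest 2 are not reported here, and no list member was left out. KLF2 and GCLM had no row under those names, and FTH1 has 2. Of 27 listed lymphocyte genes, 4 (CD2, CD79A, BANK1 and TNFRSF13C) were set aside after values had been seen. UMIs of all cells in a gate were added up for each dog that had 25 of them or more, and the sums were tested with edgeR 4.0.16 (TMM, quasi-likelihood, genes with at least 10 counts, Benjamini-Hochberg adjustment), with the dog as a block within dogs. Alternatives used DESeq2 1.42.0, limma 3.58.1, other gates and filters, covariates and each dog left out. CPM values carry counting error from UMIs. Tools were Python 3.11.15 with scanpy 1.11.5 and scipy 1.17.1, and R 4.3.3. On simulated data with 200 genes changed 3-fold, edgeR called 76% of them among 14105 monocyte genes and 73% among 13510 genes in the CD4 split, and in both 100% where the mean reached 50 counts. The simulation gave every gene the same relative spread between dogs, and smaller changes were not simulated. These shares therefore do not tell how often a smaller change, or a gene with a wider spread, would be called.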

Additional observations from a re-analysis of the deposited data

How the results depend on the processing

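The tested within-dog contrasts kept their direction and call under the alternatives run, except BACH2 in CD4-positive against CD4-negative monocytes with likely doublets kept, −0.33 at an adjusted p of 0.10. BACH2 between OS and healthy dogs has no test, so for it only values are given, all of them below 0. The alternatives that removed cells with lymphocyte UMIs or FLT3, the wide B cell gate, the minimum of 10 cells, the carry-over amount without EBF1 and the CD8 split without OS 6 were added after seeing the data. BACH2 in monocytes ranged from −1.26 to −0.62 over 14 alternatives and from −0.88 (without OS 7) to −0.51 (without healthy 7) with 1 dog left out. In lymphocytes it ranged from −0.43 to −0.10 over 12 and from −0.47 to −0.21. Genes called stayed at 0 in both. With 1 dog left out, the within-dog contrasts ranged from 2.57 to 2.71 (CD4 split), 2.30 to 2.63 (CD8 split), −1.57 to −1.46 (regulatory type), 1.30 to 1.50 (CD4 against CD8), 1.861 to 2.002 (B against T) and −1.02 to −0.81 (CD4 in monocytes). Replicate numbers are shared by both groups but only 1 of 7 pairs correlated above 0.1 (−0.29 to 0.14), so they pair nothing. With the replicate block BACH2 was −0.69 in monocytes and −0.22 in lymphocytes, with 0 genes called. Removing every cell with a UMI of any of the 27 listed genes left between 0 and 2 monocytes per dog, and B cells against plasma cells had too few dogs, so neither gave a value. Depth limits the myeloid and plasma cells, where BACH2 rested on 55 to 533 UMIs per dog in monocytes, 2 to 81 in CD4-positive monocytes, 1 to 56 in neutrophils and 1 to 55 in plasma cells.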
